A study of Mus musculus with 8 samples.

Results

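The transcripts of the heat shock proteins and J-domain chaperones were examined in single hematopoietic stem cells (HSCs) labelled WT or KO for Med23, a subunit of the Mediator complex. Members were taken by symbol: names starting with Hsp, other than the unrelated Hspbap and Hspg genes, or with Dnaj, and the transcription factors Hsf1 and Hsf2. This gave 60 of the 10720 genes in the table, 21 with an Hsp symbol, 37 with a Dnaj symbol and the 2 factors. Of the 4 members that are classically switched on by heat (Hspa1a, Hspa1b, Dnajb1 and Hsph1), Dnajb1 and Hsph1 were measured, while Hspa1a and Hspa1b were not analysed here. The other 56 chaperone genes are called constitutive below, by the grouping of the symbols and not by a measurement. They include genes that heat can also raise, such as Hsp90aa1, so the 2 groups do not cleanly divide inducible from constitutive chaperones.

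The cells came from bone marrow of adult C57BL/6 mice and were sorted as lineage-negative, Sca1-positive and c-Kit-positive cells with the phenotype CD150+CD34-CD48-. Control animals, labelled wild type (WT), were Mx1-cre- Med23 L/L, and those labelled Med23-/- (KO) were Mx1-cre+ Med23 L/L, so that both carried the floxed allele and only the latter the Cre. Poly(I:C), an interferon inducer, switches on the Mx1 promoter and with it the Cre, in blood cells and also in other interferon-responsive tissues. Whether the control mice of this experiment were injected, and how many mice gave the cells, is not given in the sources used here. The labels list 8 samples, named batch 1 to batch 4 within each genotype, but the table marks only the genotype of each cell. Whether batches of the same number were handled together is not given in the sources used here, so batch and genotype cannot be separated. Each label was therefore 1 pool, no difference below has a replicate check, and no test was run.

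Chaperones hold unfolded proteins and help them to fold. The HSP70 proteins bind exposed stretches in cycles driven by ATP, J-domain proteins deliver clients and start the ATP hydrolysis, exchange factors reset the cycle, and HSP90 finishes the maturation of many kinases and receptors. On heat or other protein damage, the factor HSF1 trimerises and binds heat shock elements in the promoters of the inducible genes. These elements are repeats of the unit GAA and its complement TTC. Chaperones made without stress serve protein synthesis in unstressed cells, and some of them are also raised by heat. HSCs are known for a low rate of protein synthesis and for a sensitivity to misfolded protein.

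A 3-unit heat shock element, GAANNTTCNNGAA or its reverse complement TTCNNGAANNTTC, was searched on both strands from 250 bases before to 50 bases after the starts of transcription in RefSeq (build GRCm38.p6). A window was held for 48 of the 60 members, and 4 of them (8.33%) had a match: Hspd1, Hspe1, Hsph1 and Dnajb6. Hspd1 and Hspe1 share 1 site, which is thus counted for both genes. Among all 27025 genes with a window the share was 0.662%, and among the 8482 genes of the table with a window it was 0.589%. The shorter 2-unit form, GAANNTTC or TTCNNGAA, lies inside every 3-unit match. It was present in 12 of the 48 members (25%), in 17.0% of all genes and in 14.1% of those in the table. The sequences that hold the 3-unit matches are printed because they set the members of the mitochondrial chaperonin, to which the results return, beside the stress-induced Hsph1. Capitals mark the match. Hspd1 and Hspe1, which encode the 2 parts of that chaperonin, face away from each other, and the first line is the whole of the 215 bases between their starts, chr1:55087933-55088147, on the + strand. It holds 2 overlapping matches. The Hsph1 stretch is chr5:149636279-149636308 on the - strand, with the match 15 bases after the start, and the Dnajb6 stretch is chr5:29735748-29735897 on the + strand.
Hspe1 and Hspd1: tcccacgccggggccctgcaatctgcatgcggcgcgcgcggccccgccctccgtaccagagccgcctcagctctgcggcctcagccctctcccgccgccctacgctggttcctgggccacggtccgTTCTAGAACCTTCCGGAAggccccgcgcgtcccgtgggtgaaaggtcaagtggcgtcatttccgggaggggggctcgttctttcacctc
Hsph1: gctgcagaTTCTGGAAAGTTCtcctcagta
Dnajb6: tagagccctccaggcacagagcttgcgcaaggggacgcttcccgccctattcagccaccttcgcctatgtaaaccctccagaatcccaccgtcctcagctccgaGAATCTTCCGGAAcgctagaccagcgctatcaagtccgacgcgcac
A match is a description of the letters and says nothing about binding in these cells.

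Of the 586 cells, 493 passed the minimum of 2000 genes and 20000 unique molecular identifiers (UMIs), 259 labelled WT and 234 labelled KO, with medians of 59649 and 50281 UMIs. UMIs were summed per label and given as counts per 1000000 UMIs of the pool (CPM), and intervals in brackets are exact 95% intervals of counting error only. The log2 ratio is that of the CPM in the pool labelled KO over the pool labelled WT. All 16 HSC marker genes of the list used were measured, and they summed to 1835 and 1872 CPM. The near-equal sums hide opposed ratios, with 9 lower and 7 higher in the pool labelled KO. Slamf1, which encodes the sorting marker CD150, had 837 and 132 UMIs, a log2 ratio of -2.26, while Cd34 was at 0.77 and Mecom at 1.14. The pools are therefore not shown to be alike in HSC markers. Med23 itself, with 122 and 117 UMIs and a log2 ratio of 0.35 (-0.03 to 0.73), was not lower under the label KO, so directions refer to the label and not to a measured loss of Med23. The authors report that poly(I:C) removed Med23 efficiently from the hematopoietic system, and these UMI counts were not a test of that deletion. In 68 cells labelled WT and 2 labelled KO, oocyte genes exceeded 1000 CPM. Values without these cells are also given for a part of the results that depended on them. Their removal did not make the pools equal in oocyte genes. Of 24 measured, 23 were still lower in the pool labelled KO, with a median log2 ratio of -2.71.

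Together the 60 genes took 1.19% of all UMIs under the label WT and 1.09% under KO, a log2 ratio of -0.13 (-0.14 to -0.12). Across 8 other ways of filtering, weighting and scaling the cells, the sum lay between -0.33 and -0.12. Levels were set side by side because a UMI counts 1 captured molecule whatever the length of the transcript. Differences in capture between genes were not measured. Hsp90ab1, Hsp90aa1 and Hspa8 alone made up 59.2% of the 431553 chaperone UMIs, and 20 of the 60 genes reached 100 CPM. In single cells the share of UMIs in the 60 genes ranged from 0.544% to 1.94% among those labelled WT, with a median of 1.17%, and from 0.566% to 2.12% among those labelled KO, with a median of 1.07%. The 2 distributions overlapped over nearly their whole range. Without the oocyte-gene cells the medians were 1.16% and 1.06%. The cumulative plot of single cells shows the shift for the 60 genes and for Hspd1 plus Hspe1.

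**Figure D1:**
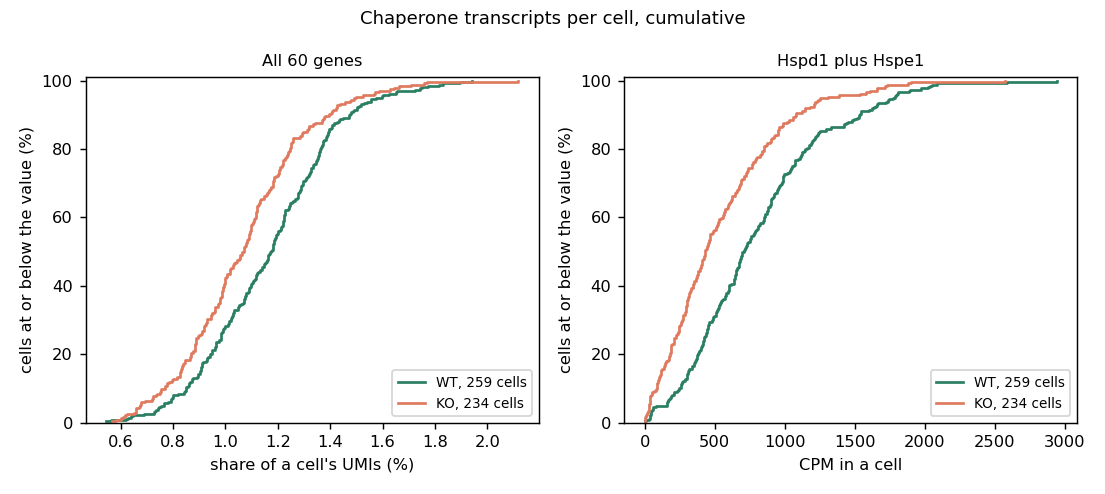
Cumulative share of cells (y axis, %) at or below a value, for 259 cells labelled WT (green) and 234 labelled KO (orange). Left, UMIs of the 60 genes as a share of the cell's UMIs, medians 1.17% and 1.07%; right, Hspd1 plus Hspe1 in CPM, medians 706 and 433, where the KO curve lies to the left over most of the range.

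In all, 39 of the 60 genes (65%) were lower in the pool labelled KO, against 48.1% of all genes, and 21 were higher, against 51.9%. Their median was -0.12 on the log2 scale, beside 0.02 over all genes. Among the 20 genes of at least 100 CPM, 15 were lower, against 53.2% of the 1781 genes at that level, and the counts at 300 CPM or more were 6 of 6 against 57.6%. Large ratios were not more frequent than in the table as a whole. At least 1.5-fold higher in the pool labelled KO were 5 of 60 (8.33%), where 17.2% of all genes were, and at least 1.5-fold lower were 9 of 60 (15%), where 15.5% of all genes were. All 14 had under 100 CPM, where 19.6% and 17.7% of genes passed the same folds, and none of the 20 at 100 CPM or more did, where 5.45% and 4.32% passed. Past 2-fold were 2 higher, where 6.98% of all genes were, and 4 lower, where 7.94% were. Without the oocyte-gene cells 5 were 1.5-fold higher (18.7% of all genes) and 11 lower (14.5%), Hspd1 now among them, and with the authors' normalized values 3 were higher (10.3%) and 11 lower (19.3%), the latter with Hsp90b1, Hspd1 and Hspe1. The plot of level against ratio shows the abundant chaperones close to 0 and the large ratios at the left, among genes of few UMIs.

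**Figure D2:**
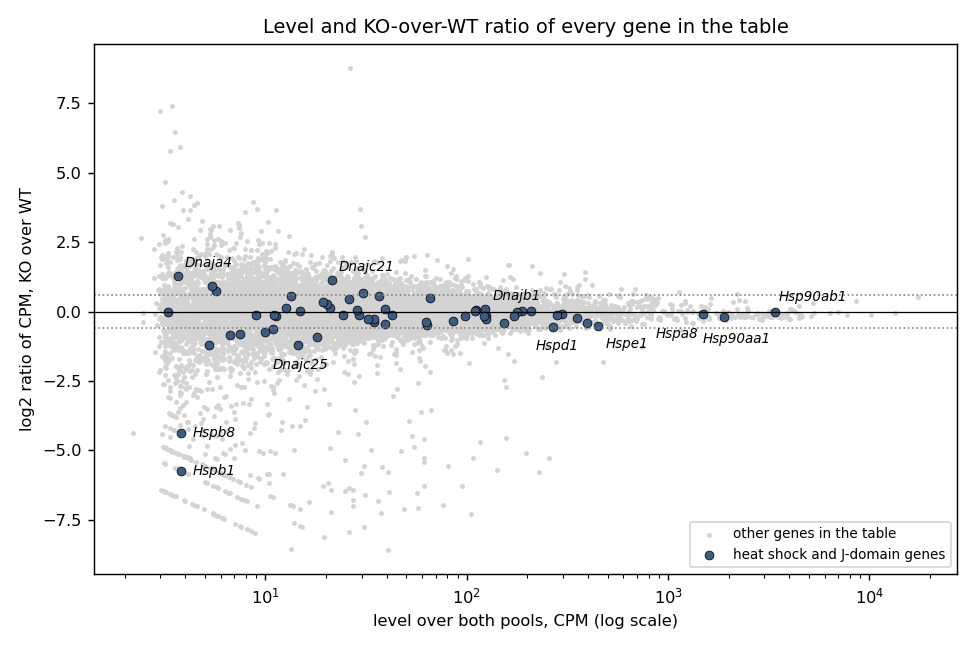
Each point is a gene, with its level over both pools in CPM (x axis, log scale) and its log2 ratio, KO over WT (y axis); grey, other genes; blue, the 60 chaperone genes; dotted lines, 1.5-fold. The 20 chaperone genes at 100 CPM or more lie between -0.55 and 0.09, and Hspb1 and Hspb8 lie below -4 at under 7 CPM.

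The comparison of stress-induced with constitutive members turned on few transcripts. Dnajb1, the J-domain partner of HSP70 that HSF1 induces, had 2581 UMIs under the label WT and 2073 under KO, or 120 CPM (116 to 125) and 128 CPM (123 to 134), a log2 ratio of 0.09 (0.01 to 0.18). For Hsph1, the inducible HSP110 exchange factor, the counts were 432 and 356, or 20.1 CPM (18.3 to 22.1) and 22.0 CPM (19.8 to 24.4), a log2 ratio of 0.13 (-0.08 to 0.34). Both were thus detected in these sorted cells, whose state before sorting was not measured, and the intervals of the pools overlapped for both genes. Summed, they gave a log2 ratio of 0.10 (0.02 to 0.18), the constitutive genes -0.13 (-0.14 to -0.12), and the difference was 0.23. That difference shrank to 0.02 with thinned cells, 0.13 with the authors' values and 0.14 with the top cell omitted, and was 0.48 without the oocyte-gene cells. The sign of the stress-induced sum depended on the weighting of cells: it was -0.10 with every cell thinned to 20000 UMIs, -0.01 without the 1 cell labelled KO that held the most, and 0.35 without the oocyte-gene cells. Hsph1 alone was at -0.22 without its top cell. No direction was therefore assigned to Dnajb1 or Hsph1.

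A few cells held much of the Dnajb1 sum. A cell labelled KO with 458463 UMIs, among the deepest of the set, held 231 of the 2073 Dnajb1 UMIs of its pool, and the next held 129. In the pool labelled WT the 3 cells with the most Dnajb1, 130, 105 and 74 UMIs, all had over 1000 CPM of oocyte genes, and such cells held 40.1% of the Dnajb1 UMIs of that pool. For comparison, they held 25.5% of its Hsp90ab1 UMIs. The part of the oocyte transcripts in this was not tested. At an equal depth of 20000 UMIs, Dnajb1 was found in 62.5% (56.3% to 68.5%) of the WT cells and 52.6% (46.0% to 59.1%) of the KO cells, and without thinning in 71.4% and 64.1%. At a depth of 10000 UMIs the Dnajb1 shares were 45.9% and 45.3%, and with a minimum of 2 UMIs at the depth of 20000 they were 45.9% and 42.7%, so the gap depended on the depth and the minimum. Hsph1 was found in 18.9% (14.3% to 24.2%) and 15.4% (11.0% to 20.7%), and without thinning in 32.0% and 20.9%. For comparison, Zp3, an egg coat gene that HSCs should lack, was found at the same depth in 47.5% and 8.12% of cells. The Hsph1 share was below that of Zp3 under the label WT and above it under KO. Zp3 had 8457 and 116 UMIs in the pools, so its share sets no background level for Hsph1. In both labels the median cell held 1 Dnajb1 UMI of 20000 and no Hsph1 UMI. The highest cells held 26 and 21 Dnajb1 UMIs and 9 and 17 Hsph1 UMIs.

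Hsf1, the master factor of the heat shock response, was counted 946 and 656 times, or 44.0 and 40.5 CPM, a log2 ratio of -0.12 (-0.27 to 0.03) that lay between -0.31 and -0.11 in 9 alternatives. Hsf2, its relative, was counted 318 and 242 times, or 14.8 and 15.0 CPM, a log2 ratio of 0.01 (-0.23 to 0.26). A single cell labelled KO held 108 of the 242, and without it the ratio was -0.83. At equal depth Hsf1 was found in 27.4% and 31.2% of cells, both with intervals that overlap. The immediate early genes, a list of other fast stress and stimulus genes such as Fos and Jun, stood apart from this. Of 16 measured, 15 were higher in the pool labelled KO, where 51.9% of all genes were. Their median log2 ratio was 1.20 and their sum was 760 against 1724 CPM. Fos was at 110 and 345 CPM and Jun at 136 and 360. That contrast with Dnajb1 and Hsph1 was present in the same cells and was not tested.

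Among the cytosolic HSP90 genes, Hsp90ab1, the constitutive form and the most abundant gene of the set, was found in every cell. Its 73226 UMIs under the label WT were 3410 CPM (3385 to 3434), and its 54757 under KO were 3384 CPM (3356 to 3413). The log2 ratio of -0.01 (-0.03 to 0.01) had an interval that includes 0, with 70 and 69 UMIs of 20000 in the median cell. In 5 of 9 alternatives the ratio lay below that interval, at -0.22 with the authors' normalized values and between -0.05 and -0.03 in the others. Hsp90aa1, the form that heat raises further in many cells, was at 2009 (1991 to 2029) and 1745 (1724 to 1765) CPM, a log2 ratio of -0.20 (-0.23 to -0.18). It kept that direction in all 9 alternatives, from -0.38 to -0.13. Its median cell held 34 and 31 UMIs of 20000, with quartiles that overlapped widely.

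The cytosolic HSP70 genes were led by Hspa8, the constitutive HSC70, at 1529 (1513 to 1546) and 1428 (1410 to 1447) CPM, a log2 ratio of -0.10 (-0.12 to -0.07). It was found in every cell, with medians of 27 and 24 UMIs of 20000. The other 4 were far below: Hspa14, a ribosome-associated HSP70, was at 71.9 and 51.7 CPM, a log2 ratio of -0.48 (-0.60 to -0.36), and Hspa2, Hspa1l and Hspa12b had under 12 CPM in both pools. The log2 ratio of Hspa12b, 0.73 on 95 and 119 UMIs, became -0.09 with the authors' normalized values. Of the exchange factors other than Hsph1, Hspa4 was lower, at 93.9 and 75.1 CPM and a log2 ratio of -0.32 (-0.43 to -0.22), while Hspbp1, at 179 and 177 CPM, and Hspa4l, with 537 and 374 UMIs, had intervals that include 0.

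The cytosolic class A and B J-domain genes, the direct partners of HSP70, had no common direction, with 5 of 8 higher, 3 lower and a sum of -0.03 (-0.06 to 0.01) that became 0.07 without the oocyte-gene cells. Dnaja1, the most abundant, was at 305 and 285 CPM, a log2 ratio of -0.10 (-0.15 to -0.04), and Dnaja2 at 133 and 112 CPM, a log2 ratio of -0.25 (-0.34 to -0.16). Dnajb6, which keeps proteins from aggregating and has a heat shock element in its promoter above, was at 207 and 210 CPM, a log2 ratio of 0.03 (-0.04 to 0.09) that became 0.21 without the oocyte-gene cells. Dnajb2, a chaperone best known from neurons, was at 24.4 and 38.5 CPM, a log2 ratio of 0.66 (0.49 to 0.83). It was higher in all 9 alternatives, but by as little as 0.30, and by 0.36 without the oocyte-gene cells. Dnajb3, with 198 and 85 UMIs or 9.22 and 5.25 CPM, was at -0.81 (-1.20 to -0.44), but 59 of the 85 lay in 1 cell, and the ratio ranged from -2.49 with the top cell omitted to -0.37 with a minimum of 30000 UMIs. Dnaja4, with 49 and 89 UMIs, was at 1.27 on the log2 scale (0.75 to 1.80), and 83.7% of the UMIs in the pool labelled WT lay in oocyte-gene cells. Without them 8 and 89 UMIs were left and the ratio was 3.46.

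The mitochondrial members were lower as a group. Of 9, 8 were lower in the pool labelled KO, where 48.1% of all genes were, with a median log2 ratio of -0.42. Their sum was 1367 and 1017 CPM, a log2 ratio of -0.43 (-0.45 to -0.40). The sum stayed between -0.67 and -0.41 in 8 alternatives. Hspe1 and Hspd1, the lid (HSP10) and the barrel (HSP60) of the chaperonin that folds imported proteins in the matrix, and the genes that share the promoter printed earlier, had the highest levels of the group. Hspe1 was at 517 CPM (508 to 527) under the label WT and 357 CPM (348 to 367) under KO, a log2 ratio of -0.53 (-0.58 to -0.49). Hspd1 was at 311 CPM (303 to 318) and 213 CPM (206 to 220), a log2 ratio of -0.55 (-0.61 to -0.49). The intervals of the pools did not overlap for either gene, and the 2 ratios did not differ beyond counting error. Both lay just inside 1.5-fold, but past it with the authors' normalized values, at -0.80 for Hspe1 and -0.84 for Hspd1, and Hspd1 also without the oocyte-gene cells, at -0.63.

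At equal depth the median cell labelled WT held 8 Hspe1 and 5 Hspd1 UMIs, and the median cell labelled KO 5 and 2.5. Cells without a UMI of Hspe1 made up 5.41% of those labelled WT and 16.7% of those labelled KO, and for Hspd1 14.7% and 24.4%. Summed, the pair had a median of 706 CPM a cell (quartiles 430 and 1059) and 433 CPM (224 and 768), and without the oocyte-gene cells 741 and 433 CPM. The cells overlapped widely between the labels, since the highest had 2940 and 2574 CPM. The summed log2 ratio of -0.54 (-0.57 to -0.50) lay between -0.82 and -0.51 in 8 alternatives, the lowest with the authors' normalized values, which lower the median of all genes by 0.17 on the log2 scale. Relative to that shift it was -0.65. Across cells, the thinned counts of the 2 genes had a Spearman rho of 0.157 in 259 cells labelled WT and 0.094 in 234 labelled KO, weak values that share each cell's library.

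**Figure D3:**
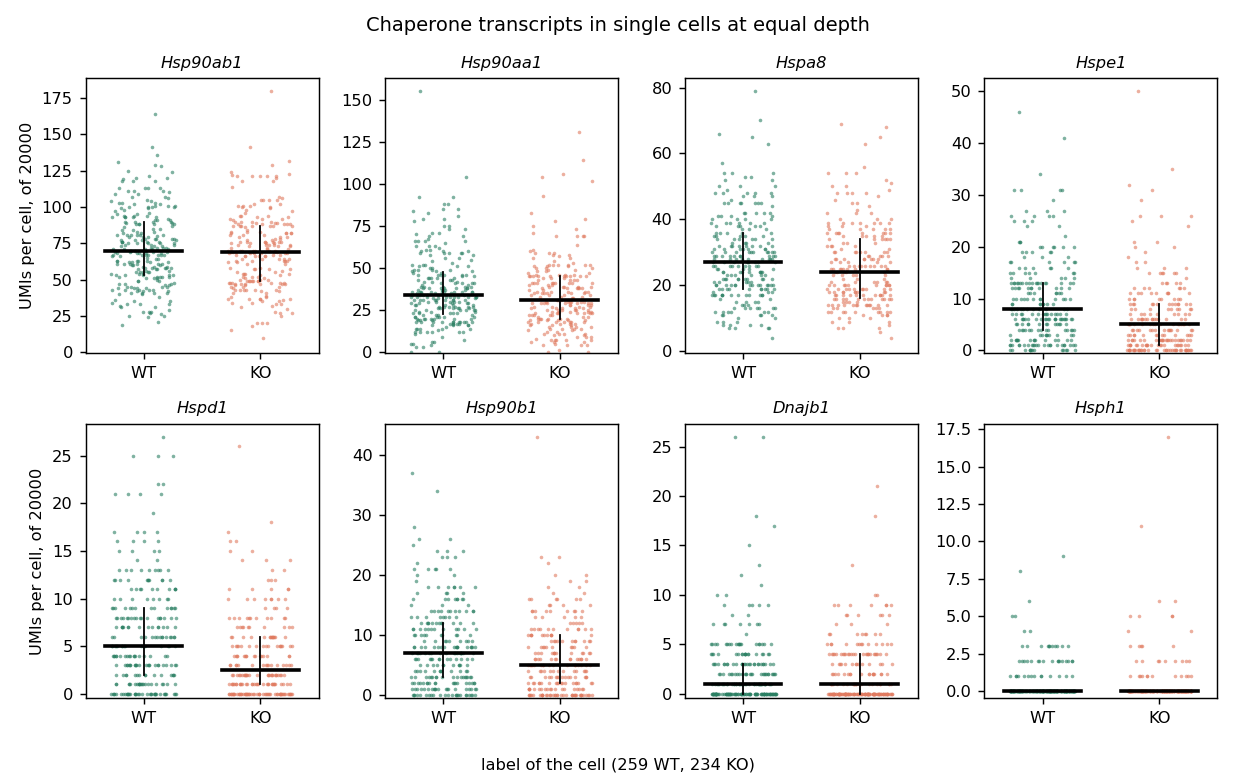
Each point is a cell thinned to 20000 UMIs, 259 labelled WT (green) and 234 labelled KO (orange), with the UMIs of 8 chaperone genes on the y axis; thick lines, medians; thin lines, quartiles. Medians of Hsp90ab1 are 70 and 69, those of Hspe1 8 and 5, and those of Hspd1 5 and 2.5, while Hsph1 is at 0 in most cells.

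The other mitochondrial genes had lower levels. Dnajc19, of the motor that pulls proteins into the matrix, was at 172 and 129 CPM, a log2 ratio of -0.42 (-0.50 to -0.34), and its relative Dnajc15 at 103 and 91.2 CPM, -0.17 (-0.26 to -0.07). Hspa9 (mortalin), the HSP70 of that motor, was at 131 and 116 CPM, -0.17 (-0.26 to -0.09), Dnaja3, its J-domain partner, at 44.0 and 32.6 CPM, -0.43 (-0.59 to -0.28), and Dnajc11, with 825 and 485 UMIs, at -0.36 (-0.52 to -0.19), or -0.13 without the oocyte-gene cells. Dnajc28, the lowest ratio of the group, had 256 and 117 UMIs or 11.9 and 7.23 CPM, -0.72 (-1.05 to -0.40), and lay between -0.88 and -0.21 in 9 alternatives. Dnajc15 and Dnajc30 changed sign without the oocyte-gene cells, to 0.04 and -0.22. Dnaja3 changed sign in 1 of 9 alternatives, within a range of -0.48 to 0.05. Outside the name rule, Grpel1, the exchange factor of Hspa9, was at 137 and 103 CPM, a log2 ratio of -0.42 (-0.50 to -0.33), while Trap1, the mitochondrial HSP90, was at 38.0 and 37.1 CPM.

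In the endoplasmic reticulum the 12 genes summed to 1177 and 1019 CPM, a log2 ratio of -0.21 (-0.24 to -0.18), with 8 lower, where 48.1% of all genes were. Hsp90b1 (GRP94), the HSP90 of this compartment, was at 444 CPM (435 to 453) and 330 CPM (322 to 339), a log2 ratio of -0.43 (-0.47 to -0.38), between -0.61 and -0.38 in 9 alternatives. Hspa5 (BiP), its HSP70, was at 290 (282 to 297) and 268 (260 to 276) CPM, a log2 ratio of -0.11 (-0.17 to -0.05) that became 0.02 with thinned cells and -0.24 without the oocyte-gene cells. So the most abundant pair of this compartment did not have equal ratios in these pools. Dnajb11, a partner of BiP, was at 69.3 and 54.0 CPM, -0.36 (-0.48 to -0.24), and Dnajb9, which binds misfolded clients, at 34.8 and 28.9 CPM, -0.27 (-0.44 to -0.10), or -0.55 without the oocyte-gene cells. On the other side, Dnajc10 (ERdj5), which reduces disulfide bonds, was at 30.6 and 45.1 CPM, 0.56 (0.40 to 0.71), and was higher in all 9 alternatives. Dnajb12, with 239 and 263 UMIs or 11.1 and 16.3 CPM, was at 0.55 (0.29 to 0.81) but at -0.28 with the authors' normalized values. Dnajc25 was at 19.1 and 8.28 CPM, -1.20 (-1.50 to -0.92), but 46.8% of its 410 UMIs in the pool labelled WT lay in 3 cells. Of 19 measured genes of the unfolded protein response, 11 were higher and 8 lower, beside 51.9% and 48.1% of all genes, with a median of 0.02. Among these Calr, a lectin chaperone, was at 388 and 496 CPM and Pdia6, a disulfide isomerase, at 225 and 167 CPM, so the compartment's folding genes had no common direction.

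**Figure D4:**
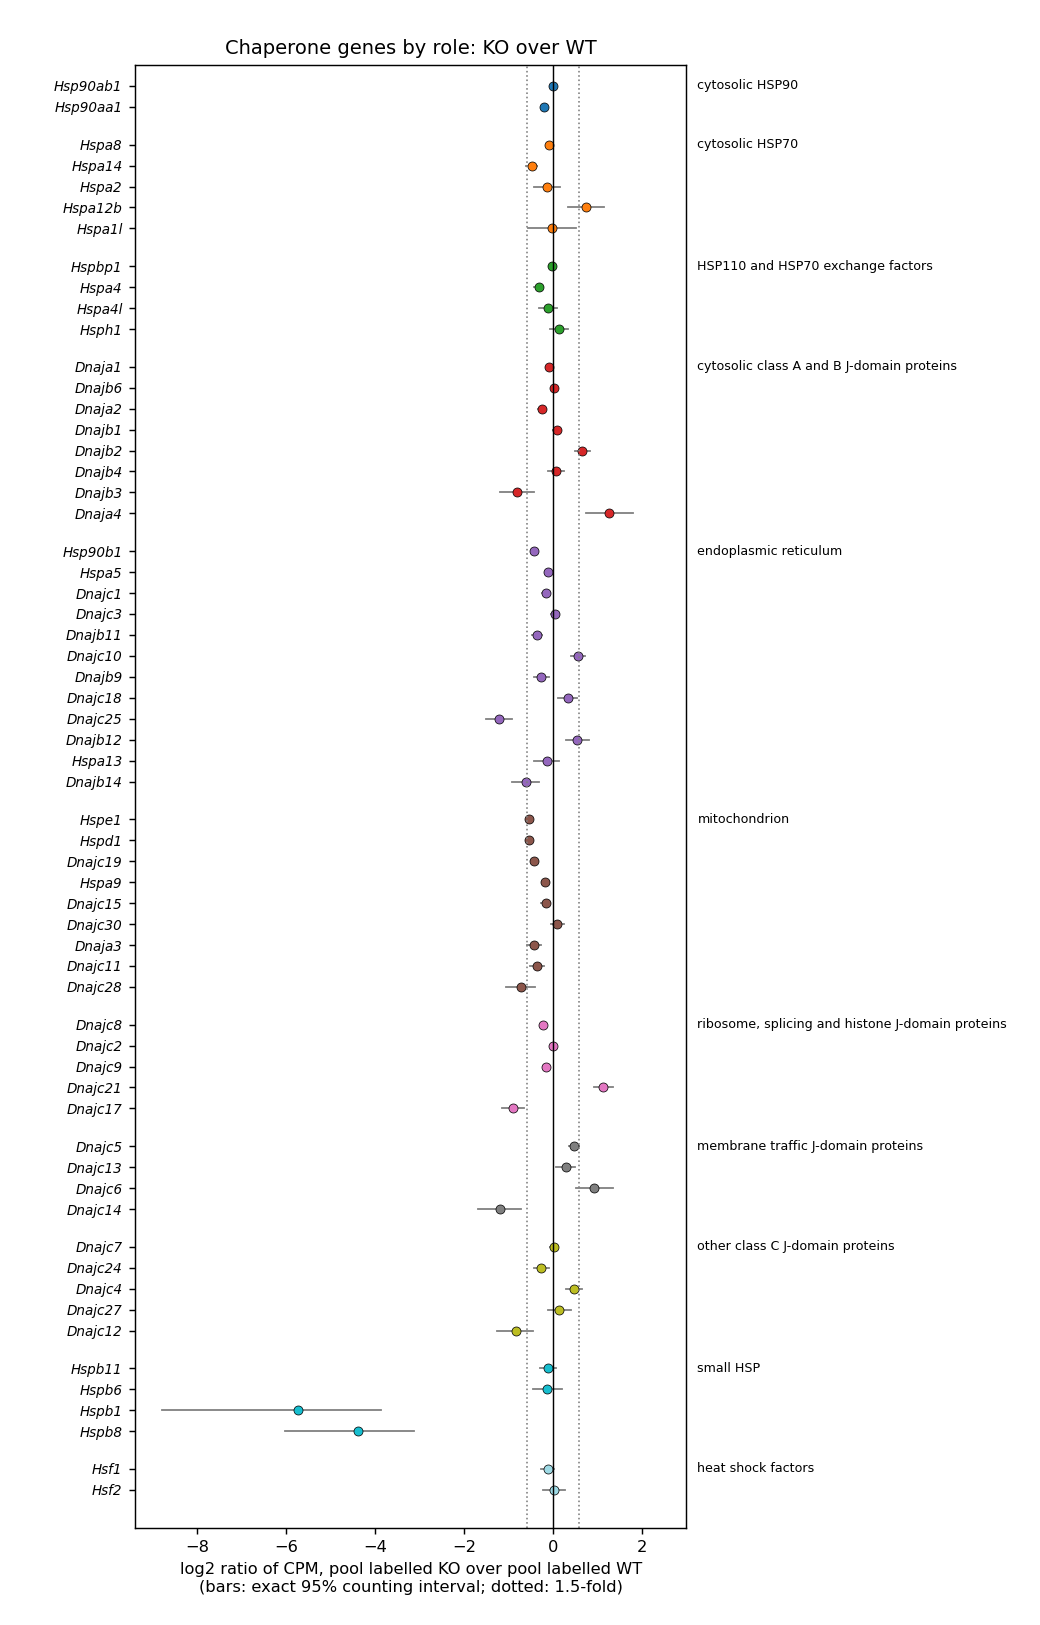
Log2 ratio of CPM, pool labelled KO over pool labelled WT (x axis), of the 60 genes grouped by role and ordered by level; points, ratios; bars, exact 95% counting intervals; dotted lines, 1.5-fold. Of the 9 mitochondrial genes 8 lie left of 0, and the long bars of Hspb1 and Hspb8 reflect 2 and 5 UMIs in the pool labelled KO.

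The J-domain genes of ribosomes, splicing and histones spanned the widest range among genes of over 10 CPM. Dnajc21, which acts in the maturation of the large ribosomal subunit, was at 14.1 CPM (12.6 to 15.8) and 30.9 CPM (28.3 to 33.7), a log2 ratio of 1.13 (0.92 to 1.34) that stayed between 0.80 and 1.31 in 9 alternatives. Its 500 UMIs in the pool labelled KO came from 41 cells, and 33.4% of them from 3. Dnajc17, a splicing factor, was at 22.5 and 12.1 CPM, -0.90 (-1.15 to -0.66), but -0.09 with thinned cells. The abundant ones had smaller ratios: Dnajc8, another splicing protein, was at 374 and 322 CPM, -0.22 (-0.27 to -0.17), Dnajc9, a histone chaperone, at 180 and 161 CPM, -0.16 (-0.23 to -0.08), and Dnajc2, which sits on the ribosome, at 187 and 188 CPM.

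The 4 J-domain genes of membrane traffic were the one role whose sum was higher by more than its interval, at 85.6 and 111 CPM, a log2 ratio of 0.38 (0.29 to 0.47), between 0.27 and 0.52 in 8 alternatives. Dnajc5, the cysteine string protein of vesicles, gave most of it, at 56.4 and 78.6 CPM, 0.48 (0.36 to 0.59), or 0.77 without the oocyte-gene cells. Dnajc6 (auxilin), which strips clathrin from vesicles, had counts of 84 and 120 UMIs, 0.92 (0.51 to 1.34), and Dnajc13, of endosomes, 395 and 362 UMIs, 0.28 (0.07 to 0.49), or 0.03 without the oocyte-gene cells. Dnajc14 went the other way, with 148 and 49 UMIs and -1.19 (-1.68 to -0.71). Of the remaining class C genes, Dnajc7 was at 109 and 111 CPM, Dnajc4 at 22.3 and 30.8 CPM, and Dnajc12, a partner of aromatic amino acid hydroxylases, at 8.20 and 4.57 CPM, -0.84 (-1.25 to -0.44).

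The small heat shock proteins, which hold damaged proteins without ATP, were rare. Hspb1 (HSP27) was counted 142 times under the label WT and 2 times under KO, a log2 ratio of -5.74 (-8.80 to -3.86). Of the 142, 60, 42 and 13 lay in 3 cells. The first also held 13 Col1a1, 25 Col1a2 and 23 Cryab UMIs, genes of stroma and muscle, the second held none of these, and the third had over 1000 CPM of oocyte genes. Without those 3 cells 27 UMIs were left. Hspb8 had 139 and 5 UMIs, -4.39 (-6.03 to -3.13), and 69.8% of the 139 lay in oocyte-gene cells. Without those cells its ratio was -3.09. Over the list of stroma and endothelium genes, of which 6 of 8 were measured, single cells ranged from 0 to 1323 CPM under the label WT and from 0 to 1031 under KO, and Col1a1 itself had 345 and 4 UMIs. The part of other cell types in these values was not tested. Hspb6 and Hspb11, the latter a subunit of ciliary transport despite its name, had ratios of -0.13 and -0.11 with intervals that include 0.

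The share of cells in which a gene was detected was compared at equal depth. Of the 20 genes at 100 CPM or more, 17 were found in a smaller share of the cells labelled KO, 1 in a larger share and 2 in every cell of both labels, where 54.5% of the 1781 genes at that level were found in a smaller share. The median difference was -4.82 percentage points over the 20 and -0.47 over the 1781. Dnaja2 was found in 73.4% and 62.8% of cells, Dnajc8 in 88.0% and 77.8%, and Hsp90b1 in 90.7% and 83.8%. Below 100 CPM 24 of 40 (60%) were found in a smaller share, beside 52.9% of the genes at that level and 53.2% of all genes.

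The UMIs of the rarer members were gathered in few cells. For 20 of the 60 genes, 1 cell held over 20% of the UMIs of a pool, and none of these 20 reached 100 CPM, where the largest share of 1 cell was 11.8%. After thinning, 14 genes were found in under 10% of cells in both labels. Neither count was made over all genes, so neither sets these members apart from other rare genes. Under 100 CPM the median share of cells with a UMI was 13.3% (WT) and 13.7% (KO) for members. For all genes at that level it was 15.1% and 15.0%. Across cells of 1 label, the 190 pairs of the 20 abundant genes had a median Spearman rho of 0.049 (259 cells labelled WT) and 0.034 (234 labelled KO), between -0.14 and 0.32 for WT. The pair at 0.32 was Dnajc9 and Hspd1, which had 0.15 in the cells labelled KO. Correlations of this size in sparse counts are no finding.

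Chaperones outside the name rule were read from lists. All 8 subunits of TRiC, the cytosolic chaperonin that folds actin and tubulin, were lower in the pool labelled KO, with a median log2 ratio of -0.29 and a sum of 2016 and 1648 CPM, whose log2 ratio lay between -0.46 and -0.26 in 8 alternatives, and 7 of 8 were lower without the oocyte-gene cells. Cct5 was at 411 and 327 CPM, -0.33 (-0.38 to -0.28), and Cct2 at 157 and 155 CPM. With prefoldin and its relatives, 13 of 16 were lower. Of 27 measured co-chaperones of HSP90 and HSP70, 16 were lower and 11 higher, a median of -0.13. The lower ones included Fkbp4, a partner of steroid receptors, at 319 and 238 CPM, -0.43 (-0.48 to -0.37), Ptges3 (p23) at 310 and 248 CPM, -0.33 (-0.38 to -0.27), and Stip1, which bridges HSP70 and HSP90, at 98.1 and 72.1 CPM, -0.45 (-0.55 to -0.34). Cdc37, which brings kinases to HSP90, was at 329 and 366 CPM, 0.15 (0.10 to 0.20). Of 13 other chaperones 11 were lower, with a median of -0.13, and 8 were lower without the oocyte-gene cells. Over all genes 48.1% were lower, and 5044 of 10720 without the oocyte-gene cells. The 16 of 27 co-chaperones and the 8 of 13 other chaperones were not far above those shares.

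For 12 of the 60 genes the GENCODE annotation of this build shows exons shared with another coding gene, among them Dnaja4 with Wdr61, Dnajc17 with Zfyve19 and Dnajc19 with Fxr1 on the opposite strand, and Dnajc25 and Hspa14 with readthrough models on the same strand. Genes such as Hspa8, Hspe1 and Hsp90ab1 also have processed copies in the genome. How shared reads were counted is not given in the sources used here, so levels of these genes are uncertain to that extent.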

How the data were processed

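Single-cell RNA-seq libraries were made from barcoded oligo-dT primers with UMIs. The authors aligned reads to the mm9 mouse transcriptome, counted UMIs, filtered cells and genes and normalized; the aligner and the normalization are not given in the sources used here. The deposited values are log2 of the normalized count plus 1. With the log2 undone, 100% of the values above 0 in a cell were whole multiples of its smallest one (tolerance 0.01), so UMI counts were recovered. Kept cells had at least 2000 genes and 20000 UMIs in the table, and UMIs were summed per label (21475782 for WT, 16180546 for KO). The columns mark no batch, so no count model and no test was run. Ratios and shares have exact Clopper-Pearson 95% intervals and CPM exact Poisson ones, for counting error only. A pool at 0 UMIs was set at 3 for ratios. Cells were thinned to 20000 UMIs at random for shares. No doublet caller was run on these hand-picked cells, and none were clustered. Scripts used Python 3.11.15, numpy 2.4.6, pandas 2.3.3 and scipy 1.17.1 and were tested on simulated data.

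The members and lists were chosen with earlier results of these data known. Given in full by rule were Dnajb1, Hsph1, Hsf1, Hsf2, the 8 members with the highest CPM and the 5 with the largest ratio each way among those with a mean of at least 0.5 UMI a cell; any other member could be named with its values. Members were compared with all genes by count and median. Genes outside the members came from fixed lists. Alternatives were every cell, a minimum of 3000 genes and 30000 UMIs, thinned cells, median-of-ratios, upper-quartile and TMM scaling, means over cells of the authors' normalized values, sums that omit a gene's top cell (the one with most of its UMIs) or the cells over 1000 CPM of oocyte genes, a 2-fold threshold, and for shares other depths and a minimum of 2 UMIs. No column was left without a label.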

Additional observations from a re-analysis of the deposited data

How the results depend on the processing

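The log2 ratio of the stress-induced sum, 0.10, turned to -0.10 with thinned cells, to -0.20 with the authors' values, to -0.0051 when the top cell was omitted, and was 0.35 without the oocyte-gene cells. The constitutive sum, -0.13, stayed below 0: -0.16 with median-of-ratios, -0.15 with upper-quartile and -0.16 with TMM scaling, -0.33 with the authors' values and -0.14 without the top cell. Their difference, 0.23, became 0.023 (thinned cells), 0.13 (authors' values), 0.14 (top cell omitted) and 0.48 (oocyte-gene cells omitted). The authors' values lower the median of all genes by 0.17 on the log2 scale, and relative to that shift the constitutive sum was -0.16 and the stress-induced sum -0.03. At least 1.5-fold higher were 3 members with the authors' values in place of 5, where 10.3% of all genes were; past 2-fold were 2 higher and 4 lower members (9 at 1.5-fold), where 6.98% and 7.94% of all genes were. Dnajb1 turned to -0.13 with thinned cells, -0.19 with the authors' values and -0.037 without the top cell, Hspa5 to 0.018 with thinned cells and Dnajb12 (0.55) to -0.28 with the authors' values. Of 198 values of 22 named members, 142 stayed within the counting interval, 51 moved out of it and 5, of genes whose interval excluded 0, turned; the cause was not tested. Hsf2, Hsph1 and Hsp90ab1, whose intervals include 0, also changed sign in some alternatives. Over all 60 members, 37 kept their direction in the 9 alternatives, 29 lower and 8 higher. Dnajc14, Dnajc25, Hspb1 and Hspb8 were at least 1.5-fold lower in all 9 and Dnaja4, Dnajc21 and Dnajc6 at least 1.5-fold higher. The same counts over all 9 alternatives were not made for all genes, so they do not set the members apart. With the authors' values 6544 of all 10720 genes were lower, which tilts such a count toward lower for genes in general. Median-of-ratios, upper-quartile and TMM scaling shift every ratio by 1 constant, between -0.03 and -0.02. They can turn only ratios already close to 0 and cannot change the difference of 2 sums, so they are weak checks of direction. No paired analysis was possible because cells are named by genotype and cell number alone and nothing was tested. Leaving out each batch and the replicate block could not be run either. Depth limits the rarer members, and shares of cells carry counting error only.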
